A study of Mus musculus with 9 samples.

Results

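Leydig cells lie between the seminiferous tubules and make testosterone, and the genes described here are 9 that mark them or carry out steroid synthesis: Lhcgr, Nr5a1, Star, Cyp11a1, Hsd3b1, Hsd3b6, Cyp17a1, Hsd17b3 and Insl3. They were found by their gene names in a table of 54532 genes, and all 9 were present with a mean level of at least 1 FPKM (reads scaled for gene length and library size), the minimum for testing. Luteinizing hormone binds its receptor on the Leydig cell and raises cAMP, cholesterol is then carried into the mitochondrion, and a chain of enzymes in the mitochondrion and the endoplasmic reticulum turns it into testosterone. Leydig cells also secrete the peptide hormone INSL3, which acts in testis descent.

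RNA was sequenced from material labelled as male germ cells of mice at PD 35 and titled spermatocytes, in 3 ClpX cKO, 3 ClpP cKO and 3 control libraries. ClpX is the unfoldase and ClpP the protease of a complex that degrades proteins in the mitochondrial matrix. In the cKO (conditional knockout) mice, the gene was deleted with Stra8-Cre, whose promoter is active in germ cells and not known to act in Leydig cells. The control genotype is given as WT, and whether controls carried Cre or floxed alleles, how cells were isolated, and whether the libraries came from separate animals is not given in the labels. The p-values therefore measure only the spread between these libraries.

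Libraries held 14334436 to 17021685 gene reads, of which the 9 genes took 6536 to 23147, with 79 to 8055 reads per gene and library. Clpx averaged 13.4 ± 2.14 FPKM in ClpX cKO against 56.5 ± 2.41 in control, and Clpp averaged 5.002 ± 1.24 FPKM in ClpP cKO against 9.06 ± 0.522 in control (SD, n = 3 each). Pachytene and diplotene markers of the labelled spermatocytes summed to 3042 to 3958 FPKM in ClpX cKO and 4088 to 4183 in ClpP cKO, against 5280 to 5560 in control, and markers of Sertoli cells, macrophages and elongating spermatids, as well as the 9 Leydig cell genes, were present too. Control 3 and ClpX cKO 1 stood apart from the other libraries of their groups. The chi-square per degree of freedom between pairs of control libraries was 12.98 and 13.98 where Control 3 was in the pair and 3.58 where it was not. For ClpX cKO libraries it was 18.3 and 21.2 with ClpX cKO 1 and 7.49 without.

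The 9 genes were all measured in the control libraries, at means that ran from 135 ± 62.2 FPKM for Cyp17a1 through 87.1 ± 15.97 for Insl3, 39.8 ± 9.23 for Hsd3b1, 38.3 ± 14.4 for Cyp11a1, 30.9 ± 1.52 for Hsd3b6, 10.9 ± 0.821 for Nr5a1, 9.78 ± 4.65 for Star and 8.36 ± 2.93 for Hsd17b3 to 6.56 ± 3.89 for Lhcgr (SD, n = 3). FPKM is a level per length, so these levels can be set against each other. Between neighbours in this order, the differences between Cyp17a1 and Insl3, between Hsd3b1 and Cyp11a1, between Cyp11a1 and Hsd3b6, and among Nr5a1, Star, Hsd17b3 and Lhcgr were smaller than the larger SD of each pair. The summed level of the 9 genes was 606, 402 and 631 FPKM in ClpX cKO and 601, 526 and 412 FPKM in ClpP cKO, against 415, 443 and 244 FPKM in control. Control 3 was the lowest of all libraries, and the other controls overlapped with ClpX cKO 2 and ClpP cKO 3. In bulk RNA, more or fewer cells of a type cannot be told apart from more or less RNA per cell.

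**Figure D1:**
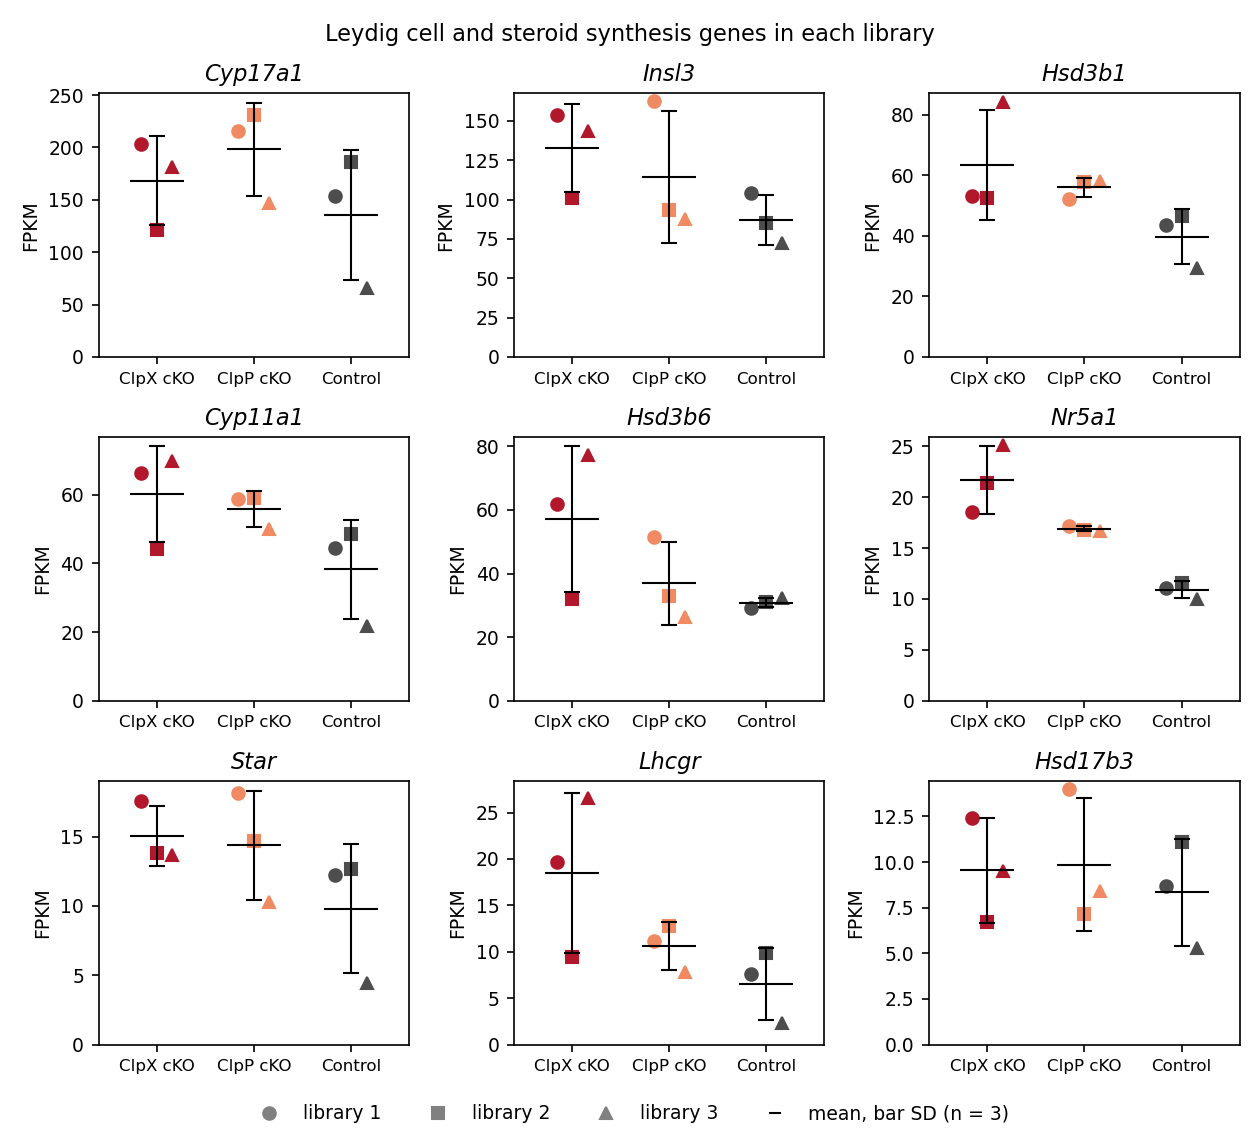
FPKM of each of the 9 genes (y axis, linear from 0) in the ClpX cKO, ClpP cKO and control libraries (x axis), with the library number given by the marker shape, the horizontal line at the mean and the bar for the SD of 3 libraries. Nr5a1 shows groups that do not overlap, while Cyp17a1, Star and Lhcgr have Control 3 far below the other controls.

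In ClpX cKO against control, Nr5a1, Lhcgr and Hsd3b1 rose, and the other 6 genes did not pass a limma test at an adjusted p of 0.05. Of all 17266 tested genes 65.6% were called, 32.1% higher and 33.5% lower, and 3 of the 9 rose and 0 fell. On this scaling the 3 of 9 were near the background. The count depended on the scaling: 7 of 9 rose with each library scaled by its own sum of gene reads (own totals), where 42.7% of all genes rose, 7 with quantile normalization, where 36.5% rose, and 7 with voom on recovered reads, where 42.6% rose. The libraries did not overlap for 3 of the 9, all higher in ClpX cKO, against 34.8% of all genes higher and 35% lower. The fitted change was above 0 for 9 of 9 genes, with a median of 0.68 (log2 of FPKM + 1), where 49.9% of all genes were above 0 and the median was -0.001. In ClpP cKO against control 1 of 9 genes, Nr5a1, rose and 0 fell, where 44.7% of all genes were called, 20.7% higher and 24% lower. Here 3 of the 9 rose with own totals, where 34.7% of all genes rose, 5 with quantile normalization, where 22.6% rose, and 5 with voom, where 35.6% rose. The libraries did not overlap for 3 of the 9, all higher in ClpP cKO, against 31.2% of all genes higher and 30.5% lower. The fitted change was again above 0 for 9 of 9 (median 0.59), where 51% of all genes were above 0 with a median of 0.01. Both comparisons use the same 3 control libraries. Without Control 3 the median of the 9 genes was 0.45 in ClpX cKO and 0.23 in ClpP cKO, and Nr5a1 was the gene called in each, where 29.7% and 15.6% of all genes rose. Scaling by own totals moved the median of all genes to 0.18 and that of the 9 genes to 0.89 in ClpX cKO, and to 0.16 and 0.76 in ClpP cKO. The share of increases among all calls was then 63.3% in place of 49% in ClpX cKO, and 71.4% in place of 46.3% in ClpP cKO.

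**Figure D2:**
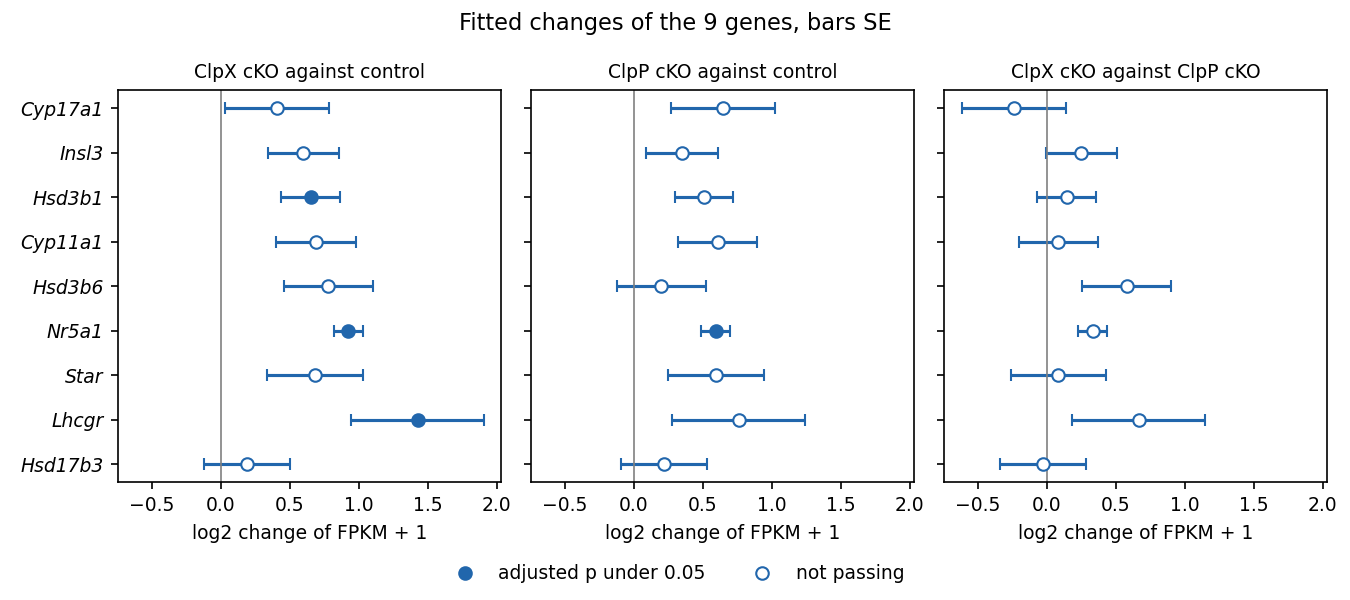
Fitted log2 change of FPKM + 1 (x axis) for each of the 9 genes (rows) in the 3 comparisons, with bars of 1 SE and filled points at an adjusted p under 0.05. Lhcgr has the largest change against control in ClpX cKO (1.43) and the widest bar, and Nr5a1 has the narrowest.

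Lhcgr (ENSMUSG00000024107, chromosome 17, 88741549 to 88791976, minus strand) encodes the receptor for luteinizing hormone. It was at 19.6, 9.40 and 26.5 FPKM in ClpX cKO and at 11.2, 12.8 and 7.78 FPKM in ClpP cKO, against 7.58, 9.85 and 2.27 FPKM in control. ClpX cKO 2 lay below Control 2, so the groups overlapped, and Control 3 was at 0.261 times the mean of the other controls. Its 79 reads in Control 3 give a Poisson interval (exact, 95%, counting error only) of 1.80 to 2.83 FPKM, below the other controls. In ClpX cKO, Lhcgr rose by 1.43 (SE 0.48, adjusted p = 0.028), and it was at 0.76 (SE 0.48, adjusted p = 0.22) in ClpP cKO. The call in ClpX cKO was lost without Control 3 (change 0.91, adjusted p = 0.072), without ClpX cKO 1 (1.33, adjusted p = 0.071) and without ClpX cKO 3 (1.12, adjusted p = 0.10). It was also lost with no filter on low values and in a fit on the 6 libraries compared. The promoter window is shown because Lhcgr had the largest fitted change of the 9. It is the 300 bases around the RefSeq start, most of them before it, on GRCm38.p6 (chr17:88791965-88792264, minus strand), with capitals at AGGTCA, the site type bound by steroidogenic factor 1 and other nuclear receptors, and at GGGCGG, the GC box bound by Sp1.
Lhcgr promoter: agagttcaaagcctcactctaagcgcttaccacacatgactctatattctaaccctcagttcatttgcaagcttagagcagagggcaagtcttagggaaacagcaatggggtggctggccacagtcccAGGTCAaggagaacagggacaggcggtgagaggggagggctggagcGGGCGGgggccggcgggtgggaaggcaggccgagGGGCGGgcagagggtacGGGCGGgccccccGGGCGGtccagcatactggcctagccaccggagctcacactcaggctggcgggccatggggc

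That window held 1 AGGTCA, beginning at base -122 from the RefSeq start, and 4 GGGCGG. RefSeq windows matched 6 of the 9 genes, and in 5 (Lhcgr, Hsd3b1, Hsd3b6, Hsd17b3 and Insl3) the start lay within 100 bases of the one in the table. Searched on both strands, AGGTCA was in 1 of these 5 and in 16.3% of all 32851 windows, GGGCGG was in 2 of 5 and in 35.7%, AGATAA, the core bound by GATA factors, was in 2 of 5 and in 11.2%, and TATAAA was in 0 of 5 and in 13.6%. No matches of different motifs overlapped in the windows printed.

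Nr5a1 (ENSMUSG00000026751, chromosome 2, 38692656 to 38714542, minus strand) encodes steroidogenic factor 1, a nuclear receptor that switches on steroid enzyme genes in Leydig cells and is also made by Sertoli cells. It was at 18.5, 21.4 and 25.1 FPKM in ClpX cKO and at 17.2, 16.8 and 16.7 FPKM in ClpP cKO, against 11.1, 11.6 and 10.00 FPKM in control. None of the 3 groups overlapped, with ClpX cKO highest and control lowest. In ClpX cKO, Nr5a1 rose by 0.92 (SE 0.11, adjusted p = 4.5e-04), in ClpP cKO by 0.59 (SE 0.11, adjusted p = 0.0086), and both calls held without any 1 of the 9 libraries, over ranges of 0.82 to 1.03 and 0.54 to 0.64. In Control 3 it was at 0.881 times the mean of the other controls, and in ClpX cKO 2 at 0.980 times the mean of the other ClpX cKO libraries. Tested Sertoli cell markers had a median change of 0.98 in ClpX cKO and 0.55 in ClpP cKO in the same libraries, and their part in the change of Nr5a1 was not tested. The antisense gene Nr5a1os overlaps Nr5a1 over 1867 bases, at 0.208 to 1.15 FPKM, and its reads cannot be told apart from those of Nr5a1 unless the counting used strand, which is not stated.

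Star (ENSMUSG00000031574, chromosome 8, 25806555 to 25815982, plus strand) encodes the protein that moves cholesterol to the inner mitochondrial membrane, the step that limits the rate of steroid synthesis. It was at 17.5, 13.8 and 13.7 FPKM in ClpX cKO and at 18.1, 14.7 and 10.3 FPKM in ClpP cKO, against 12.2, 12.7 and 4.42 FPKM in control. All 3 ClpX cKO libraries lay above all 3 controls, while ClpP cKO 3 lay among the controls. The change was 0.68 (SE 0.35, adjusted p = 0.11) in ClpX cKO and 0.60 (SE 0.35, adjusted p = 0.18) in ClpP cKO, and neither passed. The first passed with the replicate number as a block, with own totals and with voom, and the second with voom. Without Control 3, which was at 0.355 times the mean of the other controls, the changes were 0.24 and 0.16.

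Cyp11a1 (ENSMUSG00000032323, chromosome 9, 58006411 to 58027023, plus strand) encodes the side-chain cleavage enzyme of the mitochondrion, which makes pregnenolone from cholesterol. It was at 66.4, 44.2 and 69.9 FPKM in ClpX cKO and at 58.7, 58.9 and 49.9 FPKM in ClpP cKO, against 44.3, 48.6 and 21.9 FPKM in control. ClpX cKO 2 lay just below both higher controls, and the ClpP cKO libraries lay above all controls. The change of 0.69 (SE 0.29, adjusted p = 0.061) in ClpX cKO and of 0.61 (SE 0.29, adjusted p = 0.11) in ClpP cKO did not pass. Both passed with own totals, quantile normalization and voom, and the first also in a fit on protein-coding genes only. Leaving out ClpX cKO 2 brought the first to 0.89 with an adjusted p of 0.035, leaving out Control 2 brought it to 0.90 with an adjusted p of 0.033, and leaving out Control 3 brought it to 0.34 with an adjusted p of 0.15.

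Hsd3b1 (ENSMUSG00000027871, chromosome 3, 98852194 to 98859794) and Hsd3b6 (ENSMUSG00000027869, chromosome 3, 98805504 to 98814443), neighbours on the minus strand, encode 3beta-hydroxysteroid dehydrogenases that turn pregnenolone into progesterone. In the mouse, Hsd3b6 is the form that comes with adult Leydig cells. Hsd3b1 was at 53.3, 52.6 and 84.2 FPKM in ClpX cKO and at 52.2, 57.7 and 58.0 FPKM in ClpP cKO, against 43.7, 46.4 and 29.2 FPKM in control. Both knockouts lay above all controls. In ClpX cKO, Hsd3b1 rose by 0.65 (SE 0.21, adjusted p = 0.025). That call was lost without Control 3 (0.45, adjusted p = 0.075) and without ClpX cKO 3 (0.43, adjusted p = 0.075). It was also lost with no filter on low values and in a fit on the 6 libraries compared. In ClpP cKO the change was 0.51 (SE 0.21, adjusted p = 0.080) and did not pass. It passed without ClpX cKO 3 (adjusted p = 0.038) and in the fit on the 6 libraries compared. With own totals, quantile normalization and voom it passed as well.

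Hsd3b6 was at 62.0, 32.0 and 77.2 FPKM in ClpX cKO and at 51.5, 33.1 and 26.2 FPKM in ClpP cKO, against 29.3, 31.1 and 32.3 FPKM in control. The controls lay close together, Control 3 the highest of them, while ClpX cKO 2 and ClpP cKO 3 were at or below control level. The changes of 0.78 (SE 0.32, adjusted p = 0.060) in ClpX cKO and 0.20 (SE 0.32, adjusted p = 0.63) in ClpP cKO did not pass. Without ClpX cKO 2 the first was 1.14 with an adjusted p of 0.0068. Without ClpP cKO 1 the first passed at an adjusted p of 0.043, and the second was -0.07. The first also passed with own totals, quantile normalization and voom, and in a fit on protein-coding genes only. Hsd3b6 was at 1.07 times the mean of the other controls in Control 3, where Star, Lhcgr and Cyp17a1 were at 0.261 to 0.389 times theirs.

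Because the pair are close copies, their sequences bear on whether reads can be assigned to 1 of them. The coding sequences in GENCODE release M21 (GRCm38) were each 1119 bases without the stop codon and differed at 112 positions, 90% identity. Windows of 50 bases that occur in both were 2.1% of the Hsd3b1 transcript. Hsd3b6 shared 13.5% of its windows with Hsd3b2 and 12.5% with Hsd3b3, which were at most at 0.0348 and 0.0278 FPKM in any library. The part of each level that comes from shared windows depends on how such reads were counted, which is not stated. The first 90 coding bases are shown (chr3:98857875-98857964 for Hsd3b1 and chr3:98810957-98811046 for Hsd3b6, both minus strand), with capitals at the 12 positions where they differ.
Hsd3b1: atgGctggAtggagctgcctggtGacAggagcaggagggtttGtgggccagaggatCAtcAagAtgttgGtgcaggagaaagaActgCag
Hsd3b6: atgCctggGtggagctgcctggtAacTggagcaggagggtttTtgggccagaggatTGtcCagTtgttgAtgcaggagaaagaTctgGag

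The promoter windows of the pair (RefSeq, GRCm38.p6, minus strand, chr3:98859745-98860044 for Hsd3b1 and chr3:98814394-98814693 for Hsd3b6) are shown because Control 3 stood at 0.649 times the other controls for Hsd3b1 and at 1.07 times for Hsd3b6. Capitals mark AGATAA or its reverse complement TTATCT. Each held 1 such match and none of the other motifs searched.
Hsd3b1: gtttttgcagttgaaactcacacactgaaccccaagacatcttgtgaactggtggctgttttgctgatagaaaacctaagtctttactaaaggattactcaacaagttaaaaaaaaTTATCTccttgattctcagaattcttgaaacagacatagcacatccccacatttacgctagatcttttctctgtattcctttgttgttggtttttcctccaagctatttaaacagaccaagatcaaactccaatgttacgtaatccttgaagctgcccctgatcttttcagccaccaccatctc
Hsd3b6: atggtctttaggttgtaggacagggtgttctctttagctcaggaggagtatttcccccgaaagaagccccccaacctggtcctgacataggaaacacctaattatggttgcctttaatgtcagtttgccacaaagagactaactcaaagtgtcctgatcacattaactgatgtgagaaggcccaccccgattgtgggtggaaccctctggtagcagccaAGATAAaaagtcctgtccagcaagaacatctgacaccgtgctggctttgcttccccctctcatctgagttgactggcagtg

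Cyp17a1 (ENSMUSG00000003555, chromosome 19, 46667165 to 46672974, minus strand) encodes the 17alpha-hydroxylase and lyase that turns progestins into androgens. It was the most abundant of the 9 and was at 203, 121 and 181 FPKM in ClpX cKO and at 215, 231 and 147 FPKM in ClpP cKO, against 154, 186 and 66.1 FPKM in control. The groups overlapped in both comparisons. Its change was 0.41 (SE 0.38, adjusted p = 0.37) in ClpX cKO and 0.65 (SE 0.38, adjusted p = 0.18) in ClpP cKO, and without Control 3 it was -0.04 and 0.20. The change in ClpX cKO passed with quantile normalization, and that in ClpP cKO with quantile normalization and voom.

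Hsd17b3 (ENSMUSG00000033122, chromosome 13, 64058266 to 64089230, minus strand) encodes the enzyme of the last step, from androstenedione to testosterone. It was at 12.4, 6.69 and 9.52 FPKM in ClpX cKO and at 14.0, 7.16 and 8.398 FPKM in ClpP cKO, against 8.69, 11.1 and 5.27 FPKM in control. The 3 groups overlapped. Its change was 0.19 (SE 0.31, adjusted p = 0.61) in ClpX cKO and 0.22 (SE 0.31, adjusted p = 0.59) in ClpP cKO, and both turned below 0 without Control 3, to -0.08 and -0.05.

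Insl3 (ENSMUSG00000079019, chromosome 8, 71689214 to 71690575, plus strand) encodes the secreted hormone INSL3. It was at 154, 101 and 144 FPKM in ClpX cKO and at 163, 93.3 and 87.5 FPKM in ClpP cKO, against 104, 85.0 and 72.3 FPKM in control. ClpX cKO 2 lay below Control 1, as did 2 of the 3 ClpP cKO libraries. The change of 0.60 (SE 0.26, adjusted p = 0.069) in ClpX cKO and of 0.35 (SE 0.26, adjusted p = 0.28) in ClpP cKO did not pass. The first passed without ClpX cKO 2 (0.78, adjusted p = 0.038) and without ClpP cKO 1 (0.60, adjusted p = 0.022). It also passed with the replicate number as a block, in the fit on the 6 libraries compared, and with own totals, quantile normalization and voom. The second passed with quantile normalization. Insl3 lies within Jak3 on the same strand over 1362 bases, but Jak3, a kinase of cytokine receptors, was at 1.89 to 3.58 FPKM.

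**Figure D3:**
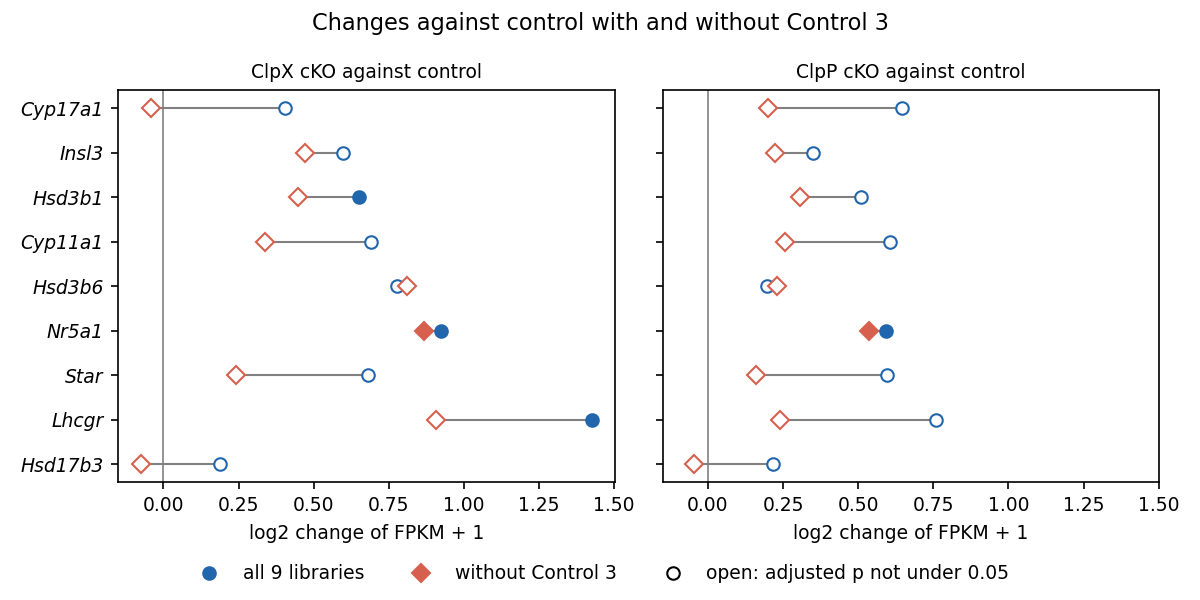
Fitted log2 change of FPKM + 1 against control (x axis) for each of the 9 genes (rows) with all 9 libraries (circles) and without Control 3 (diamonds), filled at an adjusted p under 0.05. Nr5a1 keeps its call in both panels, and Cyp17a1 and Hsd17b3 move to or below 0 in ClpX cKO.

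The genes did not vary together in full. Control 3 was below the mean of the other controls for 8 of the 9 genes, from 0.261 times for Lhcgr and 0.355 for Star to 0.881 for Nr5a1, and slightly above it for Hsd3b6. In the same library Sertoli cell markers summed to 643 FPKM against 665 and 637 in the other controls, and elongating spermatid markers to 7852 against 17436 and 16486. Among ClpX cKO libraries, ClpX cKO 2 was below the mean of the other ClpX cKO libraries for all 9 genes, from 0.407 times for Lhcgr and 0.460 for Hsd3b6 to 0.886 for Star and 0.980 for Nr5a1. Its Sertoli cell markers summed to 1311 FPKM against 1095 and 1537 in the other ClpX cKO libraries. Cyp11a1 made up 8.97% to 12.1% of the summed FPKM of the 9 genes in every library, while Lhcgr made up 0.931% to 4.21%.

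In ClpX cKO against ClpP cKO 0 of the 9 genes passed limma's test, where 0.104% of all genes were called, 0.0463% higher and 0.0579% lower. At an unadjusted p under 0.05 there was 1, Nr5a1, where 27.8% of all genes had such a p. Voom on recovered reads called 0 of the 9, where it called 4.8% of all genes. Nr5a1 was at 0.33 (SE 0.11, adjusted p = 0.11), with all 3 ClpX cKO libraries above all 3 ClpP cKO libraries, as held for 14.9% of all genes (14.9% lay the other way). Without ClpX cKO 1 it was called at 0.43 (adjusted p = 0.014), in a fit that called 27.6% of all genes. The differences of Lhcgr (0.67, SE 0.48) and Hsd3b6 (0.58, SE 0.32) did not pass, and the groups overlapped. The same held for Insl3 (0.25, SE 0.26) and for Cyp17a1, which was lower in ClpX cKO (-0.24, SE 0.38). Those of Star, Cyp11a1, Hsd3b1 and Hsd17b3 lay between -0.03 and 0.14 with SE of 0.21 to 0.35. These errors leave room for differences in either direction.

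The genes whose levels were most like those of the 9 were ranked among 12818 other protein-coding genes, by Pearson's r over the 9 libraries with the mean of the 9 standardized levels. The 8 highest were Dhcr7 (r = 0.975), Creb3l1 (0.970), Xlr5b (0.961), Tcaf1 (0.959), Aqp2 (0.956), Arhgap28 (0.954), Insig1 (0.953) and Fads1 (0.951). Dhcr7 was at 6.32, 5.43 and 6.61 FPKM in ClpX cKO and at 6.91, 5.49 and 4.78 FPKM in ClpP cKO, against 4.93, 4.94 and 2.90 FPKM in control, with Control 3 again the lowest. With group means removed, these 8 kept r between 0.886 and 0.947. Among the highest on that measure were Irf2 (0.978), Pgls (0.976), Pnpla8 (0.966), Paip2 (0.965), Spcs2 (0.961), Prdx4 (0.959) and Acsl5 (0.956). Of these Pnpla8, Paip2, Spcs2, Prdx4 and Acsl5 fell in both knockouts against control. All r are descriptions over libraries that share group, depth and preparation.

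Of 12 tested of 15 listed other genes known from Leydig cells, 9 rose and 0 fell in ClpX cKO (median 0.77). In ClpP cKO 2 rose and 0 fell (median 0.35). The background over everything tested was 32.1% called higher and 33.5% called lower in ClpX cKO. For ClpP cKO these shares were 20.7% and 24%. Knockout libraries lay wholly above control for 34.8% of tested genes in ClpX cKO and for 31.2% in ClpP cKO. Inha, the inhibin alpha subunit, which Sertoli cells make as well, was at 174, 186 and 260 FPKM in ClpX cKO and 125, 146 and 152 in ClpP cKO, against 90.9, 85.7 and 86.0 in control, with no overlap (1.21, SE 0.15, in ClpX cKO and 0.68, SE 0.15, in ClpP cKO). Pdgfra, a growth factor receptor of Leydig and stromal precursors, rose by 0.88 (SE 0.14) and 0.40 (SE 0.14), and Aldh1a1, a retinaldehyde dehydrogenase, rose by 0.99 (SE 0.19) in ClpX cKO. Sult1e1, the oestrogen sulfotransferase of Leydig cells, did not pass at -0.10 in ClpX cKO. It and the next pair were picked with their levels known. Hsd11b1, a glucocorticoid enzyme marking adult Leydig cells in the rat, stayed at or under 0.154 FPKM, and Thbs2, a marker of fetal Leydig cells in the mouse, at or under 0.383.

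Of 14 genes of cholesterol supply 10 rose and 2 fell in ClpX cKO (median 0.46), where 32.1% of all tested genes rose and 33.5% fell. In ClpP cKO 4 rose and 2 fell (median 0.25), where 20.7% of all tested genes rose and 24% fell. Npc2, which carries cholesterol out of lysosomes, rose by 0.61 (SE 0.07) and 0.29 (SE 0.07), and Vdac1, a channel of the outer mitochondrial membrane, by 0.79 (SE 0.12) and 0.45 (SE 0.12). Lipe, hormone-sensitive lipase, fell to 12.3, 9.47 and 8.23 FPKM in ClpX cKO and to 24.4, 18.3 and 22.5 FPKM in ClpP cKO, against 57.0, 60.3 and 31.8 in control. Haploid germ cells make Lipe too, and the median change of elongating spermatid genes was -2.49 and -1.29 in the same libraries. Their part was not tested. Scarb1, the receptor for lipoprotein cholesterol, was picked with its value known. It was at 0.08 in ClpX cKO and 0.03 in ClpP cKO and did not pass.

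Of the 5 electron carriers of steroid enzymes 4 rose in each knockout (medians 0.53 and 0.41). Cyb5a, the cytochrome b5 that aids the lyase reaction of CYP17A1, was at 14.0, 15.6 and 17.3 FPKM in ClpX cKO and 12.3, 12.9 and 13.04 in ClpP cKO, against 9.09, 10.0 and 8.90 in control. Fdxr, ferredoxin reductase, which feeds electrons to CYP11A1, rose by 0.52 (SE 0.10) and 0.40 (SE 0.10). Its partner Fdx1, ferredoxin, was the carrier that did not pass, at 0.42 and 0.43. Of 10 tested of 22 listed other steroid enzymes, 6 rose and 1 fell in ClpX cKO (median 0.38). In ClpP cKO 2 rose and 1 fell (median 0.22). For both lists the background was 32.1% of all tested genes higher and 33.5% lower in ClpX cKO. In ClpP cKO it was 20.7% and 24%. Hsd17b11 and Hsd17b12, dehydrogenases found in many tissues, rose by 0.92 (SE 0.12) and 0.65 (SE 0.11) in ClpX cKO and by 0.35 and 0.31 in ClpP cKO. Cyp19a1, aromatase, which makes oestrogen in Leydig and germ cells, fell by 0.51 (SE 0.10) in ClpX cKO, where it was at 1.90, 1.58 and 1.58 FPKM against 2.52, 3.16 and 2.82 in control, and did not pass in ClpP cKO (-0.20, adjusted p = 0.12). The enzyme that fell in ClpP cKO was Akr1b7, an aldo-keto reductase, at 1.49, 1.15 and 1.03 FPKM against 2.13, 1.48 and 2.92 in control (-0.49, SE 0.17, adjusted p = 0.041), and ClpP cKO 1 overlapped with Control 2.

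Of 14 tested genes of luteinizing hormone and cAMP signalling 6 rose and 4 fell in ClpX cKO (median 0.17). In ClpP cKO 4 rose and 5 fell (median 0.19). Calls were common among all tested genes, with 32.1% higher and 33.5% lower in ClpX cKO and 20.7% and 24% in ClpP cKO. Adcy9, an adenylyl cyclase, rose by 0.82 (SE 0.09) and 0.44 (SE 0.09), while Mapk3, the kinase ERK1, fell by 0.41 and 0.34 (SE 0.06). Prkar2a, a regulatory subunit of protein kinase A, fell by 1.81 and 1.03 (SE 0.27). It was at 29.9, 32.2 and 13.8 FPKM in control, where elongating spermatid markers summed to 17436, 16486 and 7852. The part of spermatids in its change was not tested. Of 12 transcription factors that act on steroid genes 9 rose and 1 fell in ClpX cKO (median 0.55), and 4 rose and 1 fell in ClpP cKO (median 0.21). Gata4, shared by Leydig and Sertoli cells, rose by 0.82 (SE 0.11) and 0.47 (SE 0.11), and Nr0b1, the repressor DAX1, rose by 0.95 and 0.69 (SE 0.17). Nr4a1, an orphan nuclear receptor that luteinizing hormone induces in Leydig cells, was the factor that fell. It was at 8.59, 4.92 and 6.45 FPKM in ClpX cKO and 8.65, 8.68 and 10.1 in ClpP cKO, against 14.4, 14.0 and 11.7 in control, with no overlap.

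Of 7 tested hormone receptors and hormone targets 6 rose and 1 fell in ClpX cKO (median 0.89), where 32.1% of all tested genes rose and 33.5% fell. In ClpP cKO 5 rose and 1 fell (median 0.46), where 20.7% of all tested genes rose and 24% fell. Drd4 and Eppin, which androgen raises in Sertoli cells, rose by 1.44 (SE 0.16) and 0.89 (SE 0.09) in ClpX cKO and by 0.87 (SE 0.16) and 0.44 (SE 0.09) in ClpP cKO. Rhox5, an androgen-dependent homeobox gene of Sertoli cells chosen after its values were seen, was at 22.2, 25.2 and 27.7 FPKM in ClpX cKO and 11.5, 17.6 and 16.6 in ClpP cKO, against 11.7, 9.29 and 9.44 in control. Rxfp2, the receptor of INSL3, which germ cells carry, fell to 1.12, 0.673 and 1.17 FPKM in ClpX cKO and to 1.84, 1.88 and 1.81 in ClpP cKO, against 2.63, 2.99 and 2.77 in control.

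Markers of other cell types were read in the same libraries, where 32.1% of all tested genes rose and 33.5% fell in ClpX cKO. In ClpP cKO 20.7% of all tested genes rose and 24% fell. All 14 tested of 16 Sertoli cell genes rose in both knockouts (medians 0.98 and 0.55), with summed levels of 1095 to 1537 FPKM in ClpX cKO and 889 to 1002 in ClpP cKO, against 637 to 665 in control. All 11 tested of 12 macrophage genes rose in ClpX cKO and 5 in ClpP cKO, with 95.6 to 116 FPKM and 64.1 to 90.4 FPKM, against 50.1 to 58.2 in control. Of 9 tested peritubular and stromal genes 6 rose in ClpX cKO and 1 in ClpP cKO, with 148 to 227 FPKM and 124 to 160 FPKM, against 93.2 to 136 in control. Of 10 pachytene and diplotene genes 9 fell in ClpX cKO and 7 in ClpP cKO (medians -0.76 and -0.45), and of 10 round spermatid genes 10 and 9 fell, with 218 to 413 FPKM and 326 to 434 FPKM, against 596 to 679 in control. All 10 elongating spermatid genes fell in both, with 1605 to 2472 FPKM and 4530 to 5414 FPKM, against 7852 to 17436 in control. Of 2 tested of 8 endothelial genes 1 was called higher in ClpX cKO and 0 in ClpP cKO (medians 0.07 and -0.05). Of 4 tested of 6 erythroid genes 1 was called lower in ClpX cKO and 0 in ClpP cKO (medians 0.29 and -0.15). In neither list was a gene called the other way. For the 10 spermatogonial genes, 7 calls were upward and 2 downward in ClpX cKO (median 0.62). In ClpP cKO they were 5 and 1 (median 0.34). In each of these lists no gene was at 0 in every library. The part of these shifts in the levels of the 9 genes was not tested.

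**Figure D4:**
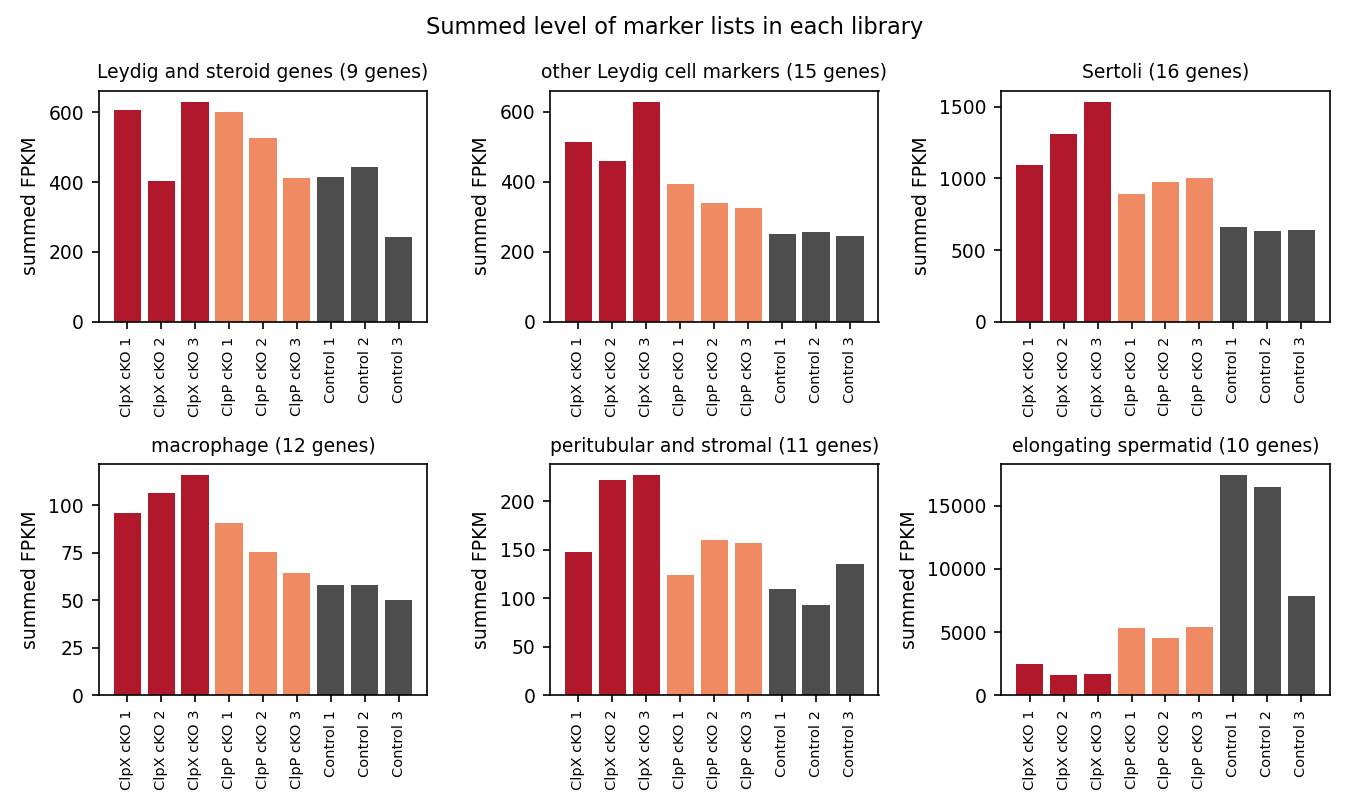
Summed FPKM (y axis, linear from 0) of the 9 Leydig and steroid genes and of 5 marker lists in each library (x axis), coloured by group. Sertoli cell markers are separated by group, while the 9 genes have ClpX cKO 2 and ClpP cKO 3 just below Control 1 and 2.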

How the data were processed

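The deposited table holds FPKM per gene for 9 libraries, made by the authors against GRCm38 (mm10) per the submitters' processing notes; aligner and counter are not given in the sources used here. It also gives, per the file headers, gene length in bases, a column of another unit. Reads per gene were recovered from FPKM multiplied by length: every value (100%) came out whole, within a tolerance of 0.01. The per-million denominators equalled median-of-ratios size factors of those reads times the geometric mean of library totals (largest difference 3.75e-12%), and were 1.075 ± 0.017 times the library's own total in ClpX cKO, 1.05 ± 0.0037 in ClpP cKO and 0.919 ± 0.028 in control. Genes with a mean of at least 1 FPKM over 9 libraries were tested on log2(FPKM + 1) in limma 3.58.1 (R 4.3.3), all 9 libraries in 1 model with a variance trend, Benjamini-Hochberg adjusted over all genes, two-sided. This scale understates changes of low genes. The fit was also run on simulated data in which most genes were unchanged. That run does not show how the fit behaves here, where 65.6% of genes were called in ClpX cKO. Named genes were all 9 members, up to 3 called genes with the smallest adjusted p per list and comparison, and the 8 most alike on each measure, of which 1 is not reported here; others are marked as chosen after their values were seen. Members and lists were chosen with earlier results of these data known. Alternatives were a pseudocount of 0.1, no filter, a minimum of 5 FPKM, other scalings, voom on reads, 6-library fits, the replicate number as a block, protein-coding genes, and leaving out libraries. Python 3.11.15, pandas 2.3.3, numpy 2.4.6 and matplotlib 3.10.9 were used.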

Additional observations from a re-analysis of the deposited data

How the results depend on the processing

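Nr5a1 kept its call against control in both knockouts under every alternative run. The count of the 9 genes called in ClpX cKO against control, 3 in the report, was 1 with no filter (13.9% of all genes rose). It was 2, Insl3 and Nr5a1, in the 6-library fit (29.4%). Lhcgr and Hsd3b1 lost their calls in both of these fits. The count was 7 with quantile normalization (36.5%), scaling by own totals (42.7%) and voom (42.6%), and 5 with protein-coding genes only (41.5%). In ClpP cKO, 1 in the report, it was 5 with quantile normalization (22.6% of all genes rose) and with voom (35.6%), 3 with own totals (34.7%) and 2 in the 6-library fit (23.4%). Leaving out libraries gave 1 to 6 genes in ClpX cKO, where 27.5% to 33.7% of all genes rose. It gave 1 to 2 in ClpP cKO, where 9.23% to 23.8% rose. In ClpX cKO against ClpP cKO it gave 0 to 1, where 0% to 12.6% rose. The cause was not tested.

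Of all genes, 6871 were called in ClpX cKO at a minimum of 5 FPKM, where fewer genes were tested, in place of 11326. In ClpP cKO, leaving out libraries gave 3617 to 8729 in place of 7722, the lowest without ClpP cKO 2. Between the knockouts, 18 in the report, the count was 29 with quantile normalization, 828 with voom and 89 in the 6-library fit. It ran from 0 without ClpP cKO 1 to 4758 without ClpX cKO 1 and 5149 without that library and Control 3.

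With libraries left out, changes that turned sign ran from -0.19 to 0.70 for Cyp17a1 and from -0.27 to 0.40 for Hsd17b3 in ClpX cKO, and from -0.065 to 0.41 for Hsd3b6 and -0.048 to 0.43 for Hsd17b3 in ClpP cKO. Between ClpX cKO and ClpP cKO they ran from -0.078 to 0.26 for Hsd3b1, -0.037 to 0.29 for Cyp11a1, -0.12 to 0.26 for Star and -0.22 to 0.23 for Hsd17b3, which was 0.0083 with own totals. None of these changes passed in the report.

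With the replicate number as a block, 5 of the 9 genes rose in ClpX cKO (Insl3, Hsd3b1, Nr5a1, Star and Lhcgr), where 32% of all genes rose, 1 in ClpP cKO (Nr5a1), where 20.7% rose, and, of all genes between the knockouts, 1. The labels give the numbers no shared source, so the main fit did not pair the libraries. Same-numbered libraries correlated at -0.0702 to 0.234, with 4 of 9 pairs over 0.1. Different-numbered libraries of different groups correlated at -0.237 to 0.113. As a hint from the data, 7 of the 9 libraries correlated best with their own number. Whether the numbers mark a shared batch was not tested. The lowest count behind a value was 79 reads.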

Other observations

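Some enzymes of other steroid-making tissues were near the lower end of detection. Cyp21a1, the 21-hydroxylase of the adrenal cortex, was at 0.301 to 0.507 FPKM in ClpX cKO and 0.190 to 0.422 in ClpP cKO, against 0.214 to 0.377 in control. Cyp11b1, the adrenal 11beta-hydroxylase, was at 0.630 to 0.731 and 0.873 to 0.952, against 0.816 to 1.07, with ClpX cKO below both other groups. Cyp11b2, from the same list of steroid enzymes, was at 0.577 to 1.27 and 0.963 to 1.23, against 1.13 to 1.90. It was tested with limma and did not pass (adjusted p = 0.064 and 0.22). Hsd17b1, which makes oestradiol in the ovary, was at 0.754, 1.11 and 1.36 FPKM in ClpX cKO and at 0.389, 0.672 and 0.225 in ClpP cKO, against 0.313, 0.244 and 0.0548 in control, with no overlap between ClpX cKO and the other groups. Hsd17b1 had a mean under 1 FPKM and was not tested in the filtered fit. Among tested genes, ClpX cKO lay wholly above control for 34.8% and wholly below it for 35%. The genes named here were chosen after their values were seen.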
